A study of Homo sapiens with 6 samples.

Results

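Actin cytoskeleton genes encode actin itself and the proteins that build, cut, bundle, tension and anchor its filaments. A list of 59 such genes was chosen by name, with earlier results of these data known. Of these, 52 had at least 1 probe set annotated to that gene alone, out of 11963 genes measured in that way. For each gene the brightest such probe set over all 6 arrays stood for the gene. The other 7 (ACTG1, CFL2, CAP1, WDR1, ACTR2, FLNA and TPM3) were not analysed here as single genes. All cells were HCT116, a line established from a human colon carcinoma. In one group a lentiviral FUGW vector stably expressed a short hairpin RNA (shRNA) against NFX1-91, a splice form of the zinc finger protein NFX1 known as a repressor of the telomerase gene TERT. The control cells stably expressed a hairpin against β-galactosidase from the same vector, so that both groups carried a hairpin and a lentivirus. Each group had 3 Affymetrix arrays, named replicates 1 to 3 below. The labels do not say whether these came from separate cultures, so p-values measure the spread between arrays, which may be technical. Signals are intensities scaled to a mean of 500 per array, and every fold change was taken after adding 16 to the signal, on a log2 scale, so that changes of dim genes come out too small.

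Actin exists as single molecules and as filaments that grow at one end and shrink at the other. Profilins and thymosins hold the single molecules, the ARP complex and formins start filaments, capping proteins stop their growth, and cofilins and gelsolin cut them. Non-muscle myosin pulls on filaments that tropomyosins coat and that actinins, plastins and calponins tie together, and in epithelial cells of the colon these filaments support the junctions, the brush border and the contact with the matrix. Many of these genes are known targets of SRF, a transcription factor whose coactivators of the MRTF family are held back by free actin.

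The targeted gene was read by 3 NFX1 probe sets, which may detect NFX1-91 or other forms of NFX1. The brightest had signals of 124, 139 and 138 on the NFX1-91 shRNA arrays, against 159, 144 and 139 on the control shRNA arrays. Its log2 fold change of -0.13 (SE 0.096) had an adjusted p = 0.4 in limma over all probe sets, and the groups overlapped. The middle probe set had a log2 fold change of -0.06 (adjusted p = 0.775), and the dimmest, whose signals of 8.87, 8.83 and 4.56 against 16.8, 17.7 and 24.4 lay around the offset, fell by 0.60 (adjusted p = 0.0137). Arrays correlated with Pearson r of 0.993 to 0.995 within groups and 0.984 to 0.985 between groups. All 8 colon epithelial markers had signal, with summed signals of 29124 to 29393 on NFX1-91 shRNA arrays and 24571 to 25374 on control shRNA arrays. In that list KRT18 and KRT8 were higher, while CDH1 (log2 fold change -0.50, adjusted p = 0.000111), EPCAM and ELF3 were lower and 3 did not pass, with a median of -0.01. Of the other marker lists, 7 of 8 smooth muscle, 8 of 10 fibroblast and 4 of 4 blood cell markers stayed below a mean signal of 100 in both groups.

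More actin cytoskeleton genes rose than fell in the cells with the NFX1-91 hairpin, and the largest change was the fall of TAGLN, a rank that depends on the offset. With an offset of 64 in place of 16, LIMA1 rose by 1.30, and MYL9 fell by 1.09 and TAGLN by 1.08 on the log2 scale. With a threshold of 0.05 on the adjusted p (limma, Benjamini-Hochberg adjustment over all 11963 genes), 24 of the 52 genes measured rose, 11 fell and 17 did not pass. That is 46.2% higher and 21.2% lower, against 14.7% higher and 17.8% lower among all genes tested. The list was chosen with earlier results of these data known, which limits what such shares can show. The 24 rises were mostly small, with a median log2 fold change of 0.29 and 13 of them under 0.3. The 11 falls had a median of -0.48, and TAGLN, MYL9 and PLS1 among them fell at least 2-fold, as LIMA1 rose. These 4 genes make up 7.69% of those measured, against 1.84% of all genes with a called change of that size. The 3 falls stand against 1.31% of all genes and the single rise against 0.527%. The median over the 52 genes was 0.08 and over all genes 0.00. NFX1-91 shRNA and control shRNA arrays lay fully apart for 37 of 52 genes, or 71.2%, against 43.5% of all genes.

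Brightness bears on these shares, since the list holds many strongly expressed genes and bright genes were called more often. Among the 2269 genes at least as bright as the lower quartile of the list, a limit chosen after the values were seen, 29% were higher and 26.8% lower. Of the 39 actin cytoskeleton genes in that range 21 were higher (53.8%) and 5 lower (12.8%). Only VIL1 and CNN1, which encode the brush border protein villin and the smooth muscle calponin, stayed below the offset of 16 on all 6 arrays. These arrays read total RNA of a culture, so a change in some of the HCT116 cells and a change in all of them cannot be told apart.

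**Figure D1:**
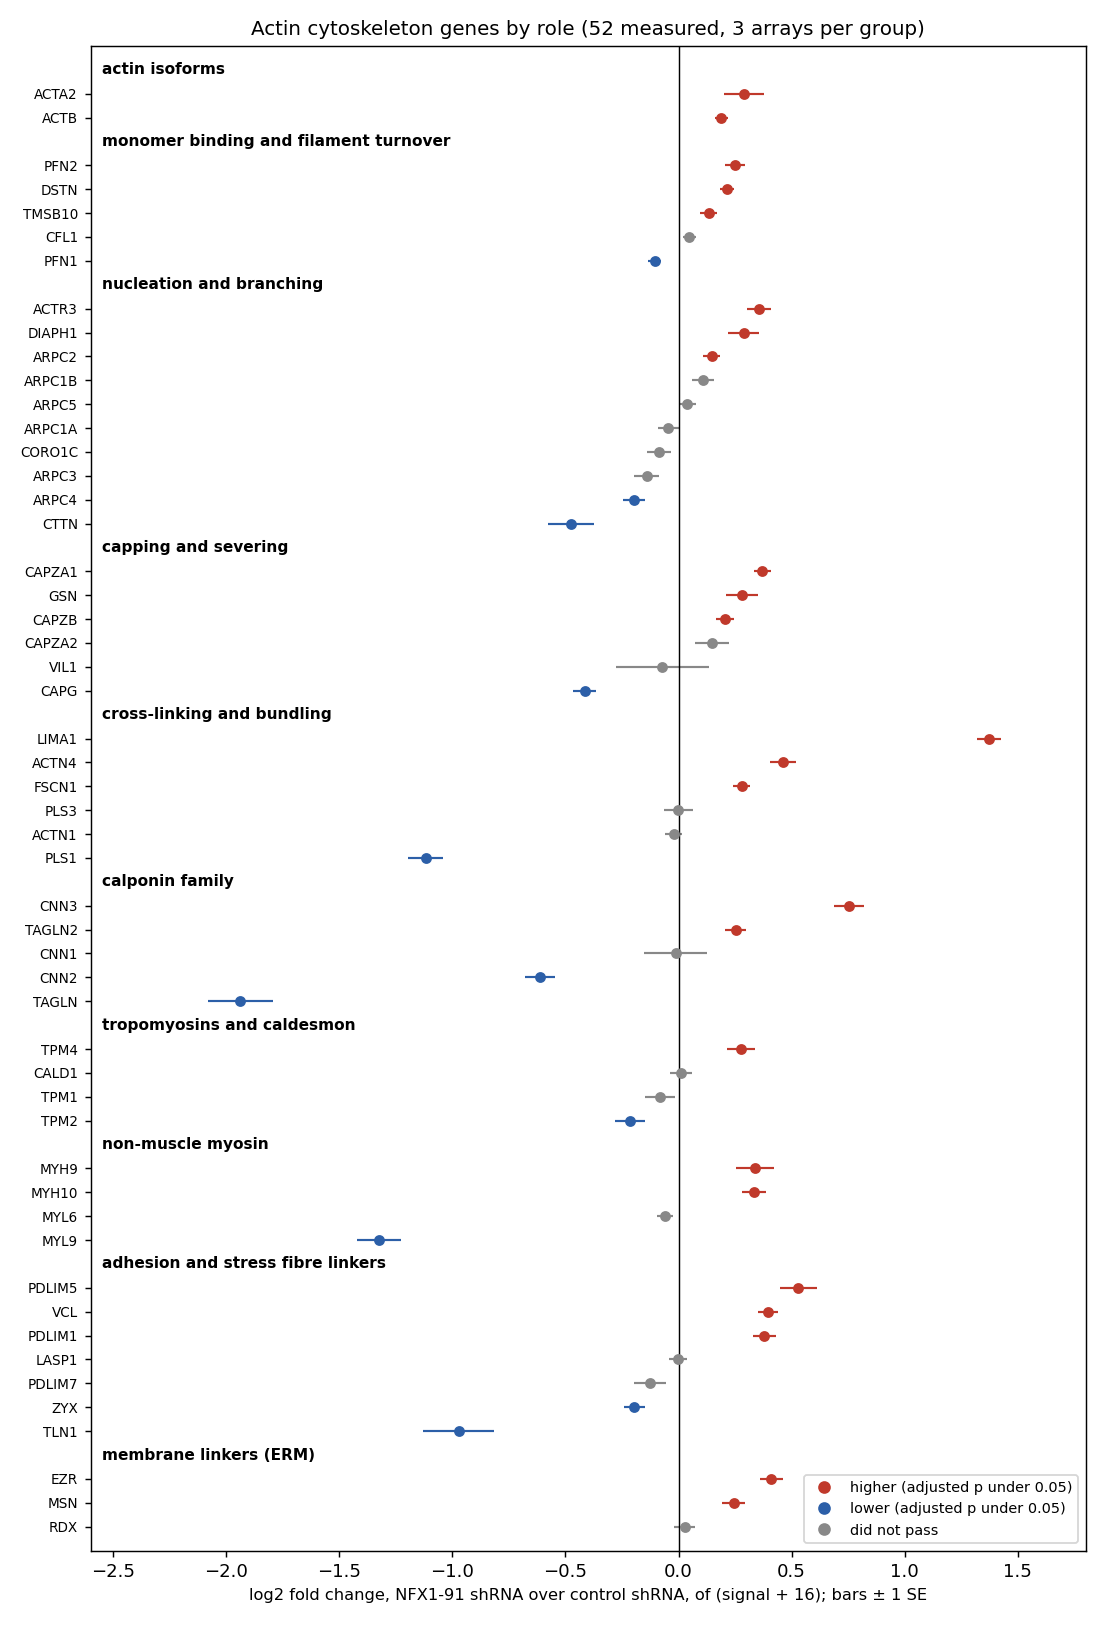
Log2 fold change of NFX1-91 shRNA over control shRNA for the 52 measured actin cytoskeleton genes, grouped by role, with 16 added to each signal, and bars of 1 SE (n = 3 arrays per group). The 24 higher genes crowd between 0.13 and 0.53 apart from CNN3 and LIMA1, while the lower genes reach -1.94.

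Promoter windows of 300 bases, 250 before to 50 after an annotated start, were taken from RefSeq (GRCh38.p14) and matched by symbol for 44 of the 52 genes, with 76 windows. ACTB, ARPC1B, CTTN, FSCN1, MYL9, PFN2, TAGLN and VIL1 were not among the 44. The CArG box, the element that SRF binds, was found in the windows of ACTN1, CNN2 and TPM4, that is in 3 of 76 windows (3.95%), against 1.29% of all 35116 windows. These 3 windows are shown first because the genes with that element went different ways: CNN2 fell, TPM4 rose and ACTN1 did not pass. The windows of ACTN1 and TPM4 were picked after their values were seen. Relative to the annotated start the box begins at -171 in ACTN1 (CCAAAAATGG), at -89 in CNN2 (CCTTATAAGG) and at -173 in TPM4 (CCAAATAAGG), in 1 of 4, 1 of 1 and 1 of 3 windows of these genes. The windows of CNN3 and LIMA1, the largest rises with a window, follow with GGAATG or its reverse complement CATTCC, the hexamer that TEAD factors bind. That hexamer begins at -142 in CNN3 and at -16 in LIMA1, in 1 of 2 windows of each. Searched on both strands, it was found in 12 of 76 windows (15.8%), against 14% of all windows. Among the 10 genes that have it 6 were higher, 2 lower and 2 did not pass. Over all 52 genes measured 46.2% were higher and 21.2% lower, and over all genes tested 14.7% and 17.8%. The 2 lower genes with the hexamer were PLS1, with it at -236 and at -226 in separate windows, and PFN1, with it at -100. The E-box CACGTG was in 3 of 76 windows (3.95%), those of CORO1C, DIAPH1 and MSN, against 7.26% of all. The ACTN1 window shown also holds CATTCC, which begins at -154 and is left in lower case. Capitals mark the CArG box in the first 3 windows and the hexamer in the other 2, each written 5′ to 3′ on its gene's strand.
ACTN1, chr14:68977517-68977816, minus strand: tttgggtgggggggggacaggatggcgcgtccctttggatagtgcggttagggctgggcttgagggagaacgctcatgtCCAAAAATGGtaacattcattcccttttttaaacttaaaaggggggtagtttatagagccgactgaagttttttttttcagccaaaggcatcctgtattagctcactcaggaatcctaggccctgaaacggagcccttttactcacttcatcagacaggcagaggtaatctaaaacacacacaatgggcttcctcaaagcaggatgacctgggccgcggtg
CNN2, chr19:1026358-1026657, plus strand: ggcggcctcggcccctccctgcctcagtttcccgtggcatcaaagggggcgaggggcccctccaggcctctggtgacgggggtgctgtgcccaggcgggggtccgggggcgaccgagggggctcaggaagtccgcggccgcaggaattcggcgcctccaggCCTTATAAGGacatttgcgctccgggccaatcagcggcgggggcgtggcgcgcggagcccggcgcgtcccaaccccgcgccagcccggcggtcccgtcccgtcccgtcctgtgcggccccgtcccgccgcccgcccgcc
TPM4, chr19:16067288-16067587, plus strand: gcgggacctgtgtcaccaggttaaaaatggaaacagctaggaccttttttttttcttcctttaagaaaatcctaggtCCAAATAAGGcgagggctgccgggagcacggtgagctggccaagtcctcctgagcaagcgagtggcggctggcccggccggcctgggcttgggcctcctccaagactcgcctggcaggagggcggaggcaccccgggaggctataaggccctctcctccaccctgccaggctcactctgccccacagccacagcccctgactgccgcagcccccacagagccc
CNN3, chr1:94925720-94926019, minus strand: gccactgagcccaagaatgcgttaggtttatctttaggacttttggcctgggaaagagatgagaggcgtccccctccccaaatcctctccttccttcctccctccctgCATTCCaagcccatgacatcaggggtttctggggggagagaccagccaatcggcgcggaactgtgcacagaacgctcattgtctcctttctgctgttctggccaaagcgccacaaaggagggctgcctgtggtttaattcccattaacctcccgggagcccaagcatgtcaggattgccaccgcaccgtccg
LIMA1, chr12:50202124-50202423, minus strand: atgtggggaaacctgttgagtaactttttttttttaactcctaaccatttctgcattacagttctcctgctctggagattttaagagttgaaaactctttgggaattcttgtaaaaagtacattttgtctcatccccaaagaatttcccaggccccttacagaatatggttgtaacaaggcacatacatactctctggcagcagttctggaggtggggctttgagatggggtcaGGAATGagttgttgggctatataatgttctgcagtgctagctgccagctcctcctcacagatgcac

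Both actin isoforms with a probe set annotated to that gene alone were called higher, by a little. ACTB, the main actin of non-muscle cells, had signals of 11859, 11614 and 11389 on the NFX1-91 shRNA arrays, against 10454, 10192 and 9917 on the control shRNA arrays. Each NFX1-91 shRNA array lay above each control array, and the gene rose by 0.19 on the log2 scale (SE 0.0296, adjusted p = 0.000813). Its other probe set rose by 0.16, and both are of a kind whose probes can also match near-identical genes. The 8 probe sets annotated to both ACTB and ACTG1 gave 0.05 to 0.10, and 1 of them was called higher. ACTA2, the smooth muscle actin, averaged 311 ± 31.3 in the cells with the NFX1-91 hairpin and 251 ± 17.4 in control cells (SD, n = 3 each), a rise of 0.29 (limma, adjusted p = 0.0334). That call was lost without NFX1-91 shRNA replicate 1 (adjusted p = 0.0904) or 2 (0.154) and without control replicate 1 (0.0832) or 2 (0.112), all by limma. With the mean of its probe sets the ACTA2 value was 0.04 (adjusted p = 0.794).

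Of 5 measured genes for monomer binding and filament turnover, 3 rose and 1 fell, none by more than 0.25. Of all genes tested 14.7% were higher and 17.8% lower, and of the whole list 46.2% and 21.2%. PFN2, the profilin prominent in neurons, rose to 2640 ± 98.8, against 2218 ± 81 in control cells (log2 fold change 0.25, SE 0.043, adjusted p = 0.00155). PFN1, the widely expressed profilin, fell to 7446 ± 86.7, against 8014 ± 193 (log2 fold change -0.11, adjusted p = 0.019). The profilins thus went opposite ways, both by small amounts. DSTN, the severing protein destrin, rose by 0.21 with 5165, 5072 and 5041 against 4401, 4412 and 4346 (adjusted p = 0.00036), whereas its relative CFL1, or cofilin, had a log2 fold change of 0.05 (adjusted p = 0.261). TMSB10, a thymosin that binds single actin molecules, rose by 0.13 (adjusted p = 0.0214). The TMSB10 call was lost without NFX1-91 shRNA replicate 1 (0.0859) or 3 (0.0838) and without control replicate 2 (0.0679) or 3 (0.0721). PFN1 did not pass without NFX1-91 shRNA replicate 2 (0.0779) or 3 (0.0637), without control replicate 2 (0.0872), or with each array centred on its median (0.126).

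Subunits of the ARP complex, which starts branches on existing filaments, did not move together. ACTR3, an actin-related subunit of the complex, rose to 4881, 4815 and 4505 on NFX1-91 shRNA arrays, against 3842, 3851 and 3406 on control arrays (log2 fold change 0.36, SE 0.053, adjusted p = 0.000599). ACTR2, also actin-related, could not be read alone. All 3 ACTR3 probe sets rose, by 0.31 to 0.36. ARPC2, a subunit of the core, rose by 0.15 (adjusted p = 0.0125), and ARPC4, its partner there, fell by 0.20 (0.0126). The other subunits measured did not pass, with ARPC1B at 0.11, ARPC5 at 0.04, ARPC1A at -0.05 and ARPC3 at -0.14. The ARPC2 call was lost without NFX1-91 shRNA replicate 2 (adjusted p = 0.0589) and the ARPC4 call without control replicate 2 (0.0665), while ARPC3 passed without NFX1-91 shRNA replicate 3 (0.0104) and ARPC1B without control replicate 1 (0.0115), by limma. With the mean of its probe sets ARPC4 did not pass either (0.0618).

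DIAPH1, a formin that grows unbranched filaments, had signals of 1356, 1356 and 1359 in the cells with the NFX1-91 hairpin, against 1238, 1093 and 1007 in control cells. The rise was 0.29 (SE 0.068, adjusted p = 0.00872), and its other 2 probe sets gave 0.06 and 0.14 without passing. CTTN, the branch-stabilising cortactin, fell to 508 ± 41.9, against 717 ± 114 in control cells, where replicate 1 stood highest with 848 (log2 fold change -0.48, SE 0.103, adjusted p = 0.00565). By the mean of all probe sets of the gene neither passed, DIAPH1 with 0.16 (adjusted p = 0.104) and CTTN with -0.20 (0.115). CORO1C, a coronin that acts on branches, had a log2 fold change of -0.09 and did not pass (0.256).

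Capping and severing proteins split, with CAPZA1 and CAPZB of the capping protein heterodimer called higher, as was GSN, and CAPG lower. CAPZA1, an alpha subunit, had 3857, 3770 and 3843 on the NFX1-91 shRNA arrays, against 3101, 2872 and 2894 on the control arrays, a rise of 0.37 (SE 0.039, adjusted p = 6.55e-05). CAPZB, the beta subunit, rose by 0.21 (adjusted p = 0.00306), with 3 of its 4 probe sets called higher. CAPZA2, the other alpha subunit, had 0.15 and did not pass (0.164), although its groups did not overlap. Without control replicate 1 the CAPZA2 value was 0.05, and its other probe set gave 0.03. CAPG, a macrophage-type capping protein of the gelsolin family, fell to 540, 522 and 549, against 732, 713 and 719 in control cells (log2 fold change -0.42, SE 0.051, adjusted p = 0.000177). Its relative gelsolin, GSN, moved the other way by 0.28 (adjusted p = 0.0112), a call lost without NFX1-91 shRNA replicate 2 (0.0671) and with the mean of its probe sets (0.225). CAPZB also did not pass by that mean (0.337), which takes in a dim probe set that averaged 5.95 in the cells with the NFX1-91 hairpin and 10.3 in control cells. VIL1 had signals of 8.83, 2.11 and 0.797 against 1.21, 11 and 2.87, all below the offset.

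Cross-linking proteins held the largest rise of the list and a fall of more than 2-fold. LIMA1, also called EPLIN, which bundles filaments and ties them to cadherin junctions, had signals of 1291, 1326 and 1347 on the NFX1-91 shRNA arrays, against 502, 476 and 524 on the control shRNA arrays. Arrays within a group differed by little and the groups lay far apart, a rise of 1.37 (SE 0.053, adjusted p = 3.19e-07). PLS1, the plastin of intestinal brush borders, fell to 320, 294 and 331, against 635, 727 and 749 in control cells (log2 fold change -1.12, SE 0.077, adjusted p = 6.5e-06). Its relative PLS3 had 1278, 1353 and 1339 against 1192, 1372 and 1418, groups that overlapped (log2 fold change -0.00, SE 0.064, adjusted p = 0.994). Of the actinins, ACTN4 rose to 1923, 1854 and 1754, against 1446, 1288 and 1275 (log2 fold change 0.46, adjusted p = 0.000214). ACTN1 had 2550, 2635 and 2480 against 2521, 2629 and 2629 (log2 fold change -0.02, adjusted p = 0.74). FSCN1, the fascin of filopodia, rose by 0.28 (adjusted p = 0.00028), and its second probe set by 0.35.

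The calponin family, small proteins that bind along filaments and damp contraction, went both ways. TAGLN, or transgelin, had signals of 15.6, 10.8 and 19.3 on the NFX1-91 shRNA arrays, against 91.7, 114 and 104 on the control shRNA arrays. The NFX1-91 shRNA arrays thus lay around the offset of 16, and the log2 fold change of -1.94 (SE 0.143, adjusted p = 9.47e-06) became -2.71 with an offset of 1 and -1.08 with an offset of 64. TAGLN had no value with dim genes left out. TAGLN2, its close relative in epithelial cells, rose to 1269, 1205 and 1191, against 1005, 1054 and 1006 (log2 fold change 0.25, SE 0.047, adjusted p = 0.00217).

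CNN2, a calponin of non-muscle cells, fell to 1038, 986 and 876, against 1421, 1465 and 1562 in control cells (log2 fold change -0.61, SE 0.066, adjusted p = 8.04e-05). It was read by a single probe set of the kind that can match other genes. CNN3, the acidic calponin, rose to 2069, 2202 and 2173, against 1130, 1309 and 1372 (log2 fold change 0.75, SE 0.067, adjusted p = 2.57e-05). In neither gene did the groups overlap. CNN1 had signals of 2.29, 5 and 6.91 against 6.61, 4.3 and 3.66, below the offset. Markers of smooth muscle, where TAGLN, CNN1 and MYL9 are most abundant, had summed signals of 999 to 1055 in the cells with the NFX1-91 hairpin and 1190 to 1243 in control cells. SMTN, a smoothelin that carried most of that sum, was lower (831 ± 20.3 against 1009 ± 13.8, adjusted p = 0.00117), MYH11 was higher at signals around the offset (16.5 ± 5.49 against 7.3 ± 2.49, adjusted p = 0.0459), and the other 6 of 8 did not pass. CASQ2 and LMOD1 lay below the offset on all arrays. All cultures were of the HCT116 line, and whether cells within a culture differed in these genes was not tested.

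**Figure D2:**
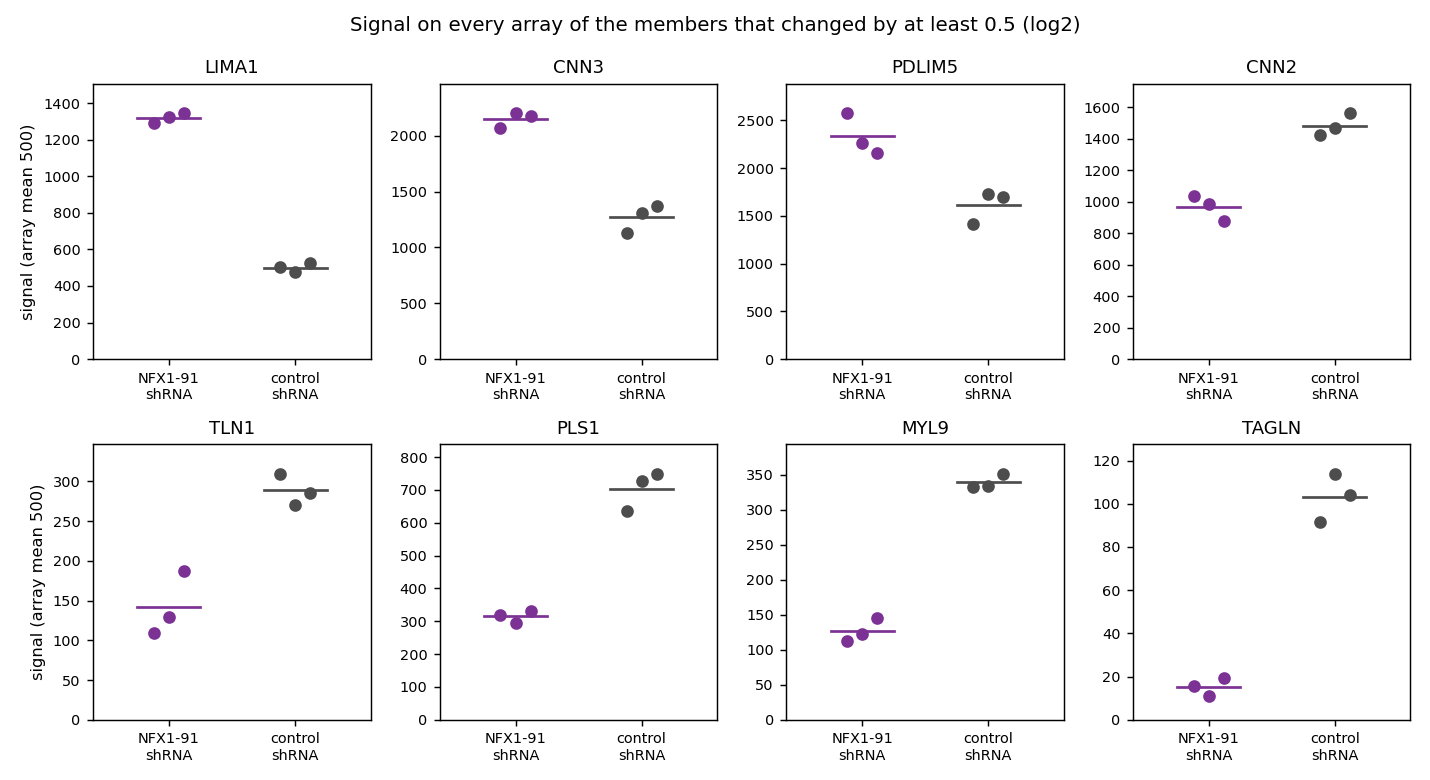
Signal on each array (array mean 500, linear axis from 0) for the 8 genes that passed and changed by at least 0.5 on the log2 scale. NFX1-91 shRNA arrays stand left of control shRNA arrays, points are arrays and lines are group means, and in none of the 8 genes do the groups overlap.

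Tropomyosins, which coat filaments and decide which proteins reach them, changed by isoform. TPM4 rose to 1051 ± 54.2, against 867 ± 59.7 in control cells (log2 fold change 0.27, adjusted p = 0.00706), and its second probe set rose by 0.52 (adjusted p = 0.00697 over probe sets). TPM2 fell to 2164, 2156 and 2467, against 2527, 2508 and 2846 (log2 fold change -0.21, SE 0.065, adjusted p = 0.0293), and its dimmer probe set read 124 against 228, a fall by 0.82 (adjusted p = 0.00487 over probe sets). The brighter TPM2 probe set, whose probes can match other transcripts, did not pass without NFX1-91 shRNA replicate 1 (adjusted p = 0.111) or 2 (0.129) or control replicate 3 (0.105). TPM1 had a log2 fold change of -0.08, and none of its 4 probe sets passed. CALD1, or caldesmon, had 0.01 by its brightest probe set, and its 8 probe sets ran between -0.31 and 0.46 without any passing.

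Non-muscle myosin heavy chains rose and a light chain fell. MYL9, a regulatory light chain of smooth muscle and non-muscle myosin, fell to 112, 123 and 145 on NFX1-91 shRNA arrays, against 333, 335 and 352 on control arrays (log2 fold change -1.32, SE 0.096, adjusted p = 8.59e-06). The regulatory light chains MYL12B and MYL12A, from the list of regulators below, were brighter and were named after their values were seen. MYL12B averaged 4453 in the cells with the NFX1-91 hairpin and 4839 in control cells (log2 fold change -0.12, limma, adjusted p = 0.0349). MYL12A averaged 2261 against 2167 and did not pass (0.06, adjusted p = 0.309). MYL6, the essential light chain, had 5221, 5089 and 5458 against 5611, 5447 and 5376, which overlapped (log2 fold change -0.06, adjusted p = 0.247), but it passed as lower with quantile normalization (-0.098, adjusted p = 0.0428). MYH10, heavy chain of myosin IIB, rose to 903, 866 and 935, against 732, 718 and 684 (log2 fold change 0.34, SE 0.052, adjusted p = 0.000837). Its second probe set was dim and gave 0.04, so that the mean of both did not pass (0.19, adjusted p = 0.176). MYH9, heavy chain of myosin IIA, rose by 0.34 as well (adjusted p = 0.0115), a call lost without NFX1-91 shRNA replicate 2 (0.0626).

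Adhesion and stress fibre linkers also split, with VCL, PDLIM1 and PDLIM5 higher and TLN1 and ZYX lower. TLN1, or talin, which joins integrins to actin, had signals of 110, 130 and 188 in the cells with the NFX1-91 hairpin, against 309, 270 and 286 in control cells. The NFX1-91 shRNA arrays spread widely but stayed below every control array (log2 fold change -0.97, SE 0.156, adjusted p = 0.000975). VCL, the vinculin that binds talin, rose to 1696, 1848 and 1782, against 1332, 1346 and 1352 (log2 fold change 0.40, SE 0.044, adjusted p = 9.06e-05). ZYX, or zyxin, which repairs strained stress fibres, fell to 860 ± 13.4, against 988 ± 22.7 (log2 fold change -0.20, adjusted p = 0.00812). LASP1 had a log2 fold change of -0.00, with 1738 ± 41.1 against 1739 ± 39.1.

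Of the PDZ and LIM domain proteins that dock on actinin, PDLIM5 rose to 2576, 2267 and 2161, against 1418, 1729 and 1693 in control cells (log2 fold change 0.53, SE 0.083, adjusted p = 0.000864). This gene had 9 probe sets, of which 6 rose, by 0.53 to 0.72, and the remaining 3 were dim and did not pass. On the probe set with 0.72, control replicate 1 was low, with 284 against 449 and 478 on the other control arrays. Without single arrays the brightest PDLIM5 probe set gave 0.44 to 0.58. PDLIM1 rose to 1426, 1410 and 1431, against 1009, 1127 and 1135 (log2 fold change 0.38, adjusted p = 0.000395). PDLIM7 had 296, 319 and 315 against 352, 319 and 349, with a log2 fold change of -0.12 that did not pass (adjusted p = 0.221).

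The membrane linkers ezrin, radixin and moesin tie filaments to the plasma membrane. EZR, the form of epithelial cells, rose to 4907, 4748 and 4767, against 3870, 3337 and 3658 in control cells (log2 fold change 0.41, SE 0.05, adjusted p = 0.000185), and 4 of its 5 probe sets were called. MSN rose by 0.24 (1738 ± 107 against 1463 ± 24.6, adjusted p = 0.00418). RDX had 0.03 and did not pass (adjusted p = 0.716), with arrays of both groups intermixed.

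Several members could be checked against other probe sets of the same gene. Of the 35 called genes 16 had a single probe set, so that no such check was possible, among them LIMA1, PLS1, TAGLN, CNN2, CNN3, MYL9 and TLN1. The probe sets of LIMA1, TAGLN, CNN2, MYL9 and TLN1 are also of kinds whose probes can match other transcripts. For the 19 with others, 9 had another called the same way, over 22215 probe sets of which 12% were higher and 13.7% lower. None had another called the opposite way, and the remaining 10 had no other that passed.

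**Figure D3:**
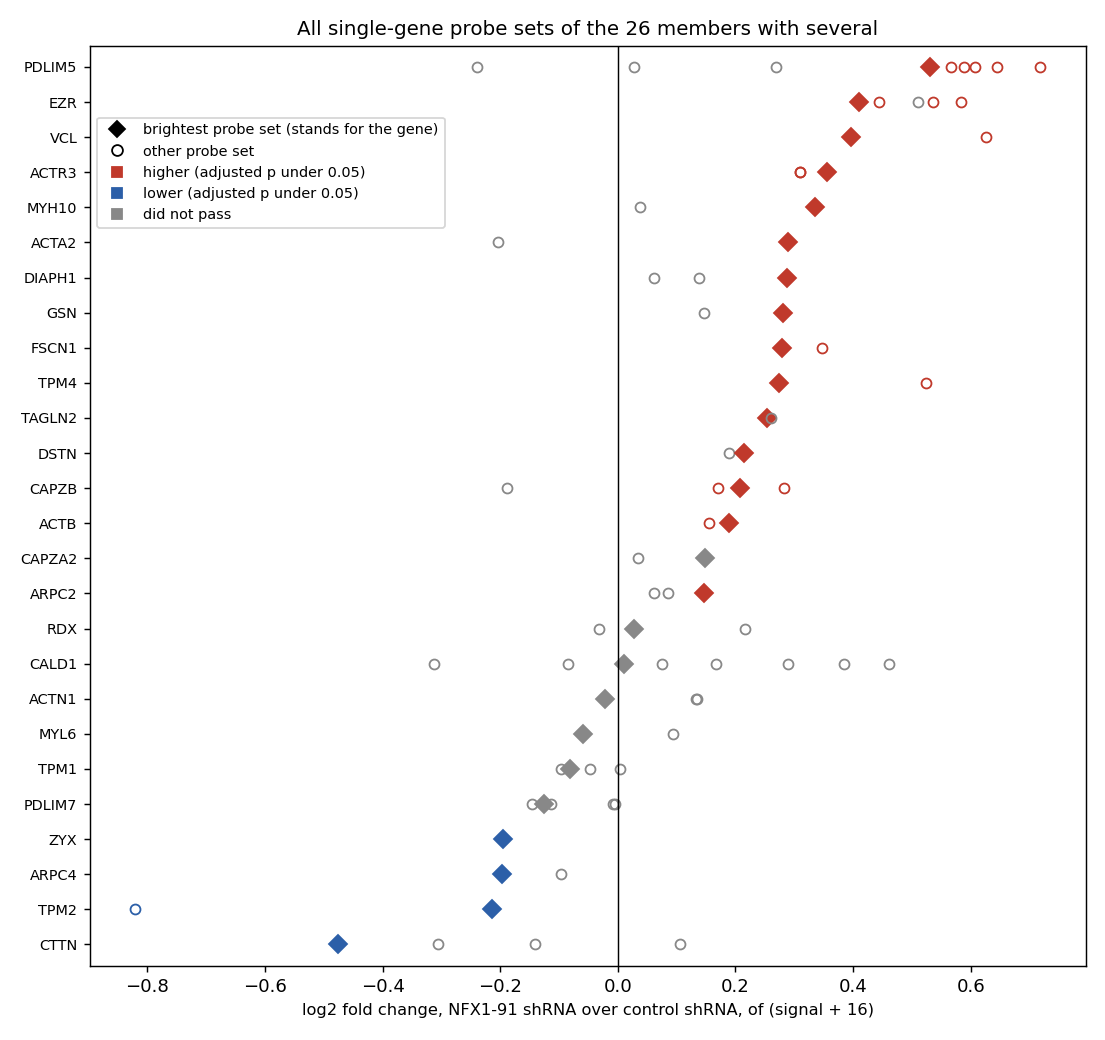
Log2 fold changes (NFX1-91 shRNA over control shRNA) of all probe sets annotated to a single gene, for the 26 actin cytoskeleton genes with several. Diamonds are the brightest probe sets and circles the others, coloured by call, and no gene has called probe sets on both sides of 0.

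Regulators of actin outside these families were taken from a separate list of 66 genes, 58 of them measured, of which 22 were higher, 7 lower and 29 did not pass, with a median log2 fold change of 0.13. The background is the same, 14.7% higher and 17.8% lower. The strongest rises by adjusted p were ROCK2, a kinase that activates myosin (757 ± 50.1 against 413 ± 13.2, log2 fold change 0.85), ILK, a pseudokinase at integrins (0.62), and DAAM1, a formin (1.08). Next came SVIL, the filament-linked supervillin (0.76), and among these 4 the highest adjusted p was 5.72e-05. The strongest falls were WASF2, which activates the ARP complex (271 ± 14.2 against 525 ± 32.5, log2 fold change -0.91), FERMT2, the kindlin that acts with talin (-0.73), and TWF2, a twinfilin (-0.60). LIMK1, a cofilin kinase (-0.46), MRTFB, a coactivator of SRF (-0.42), and SSH3, a cofilin phosphatase (-0.31, adjusted p = 0.0173), followed.

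SRF itself rose by 0.33 (adjusted p = 0.00871) and its other coactivator MRTFA had -0.11 without passing, both named after their values were seen. With probe sets that can match other transcripts left out SVIL had a log2 fold change of -0.05 (adjusted p = 0.854) and LIMK1 one of 0.29 (0.357), and by the mean of probe sets LIMK1 had -0.11 (0.558). The SSH3 call was lost without NFX1-91 shRNA replicate 1 (0.0526) or 2 (0.0638) or control replicate 3 (0.0617).

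**Figure D4:**
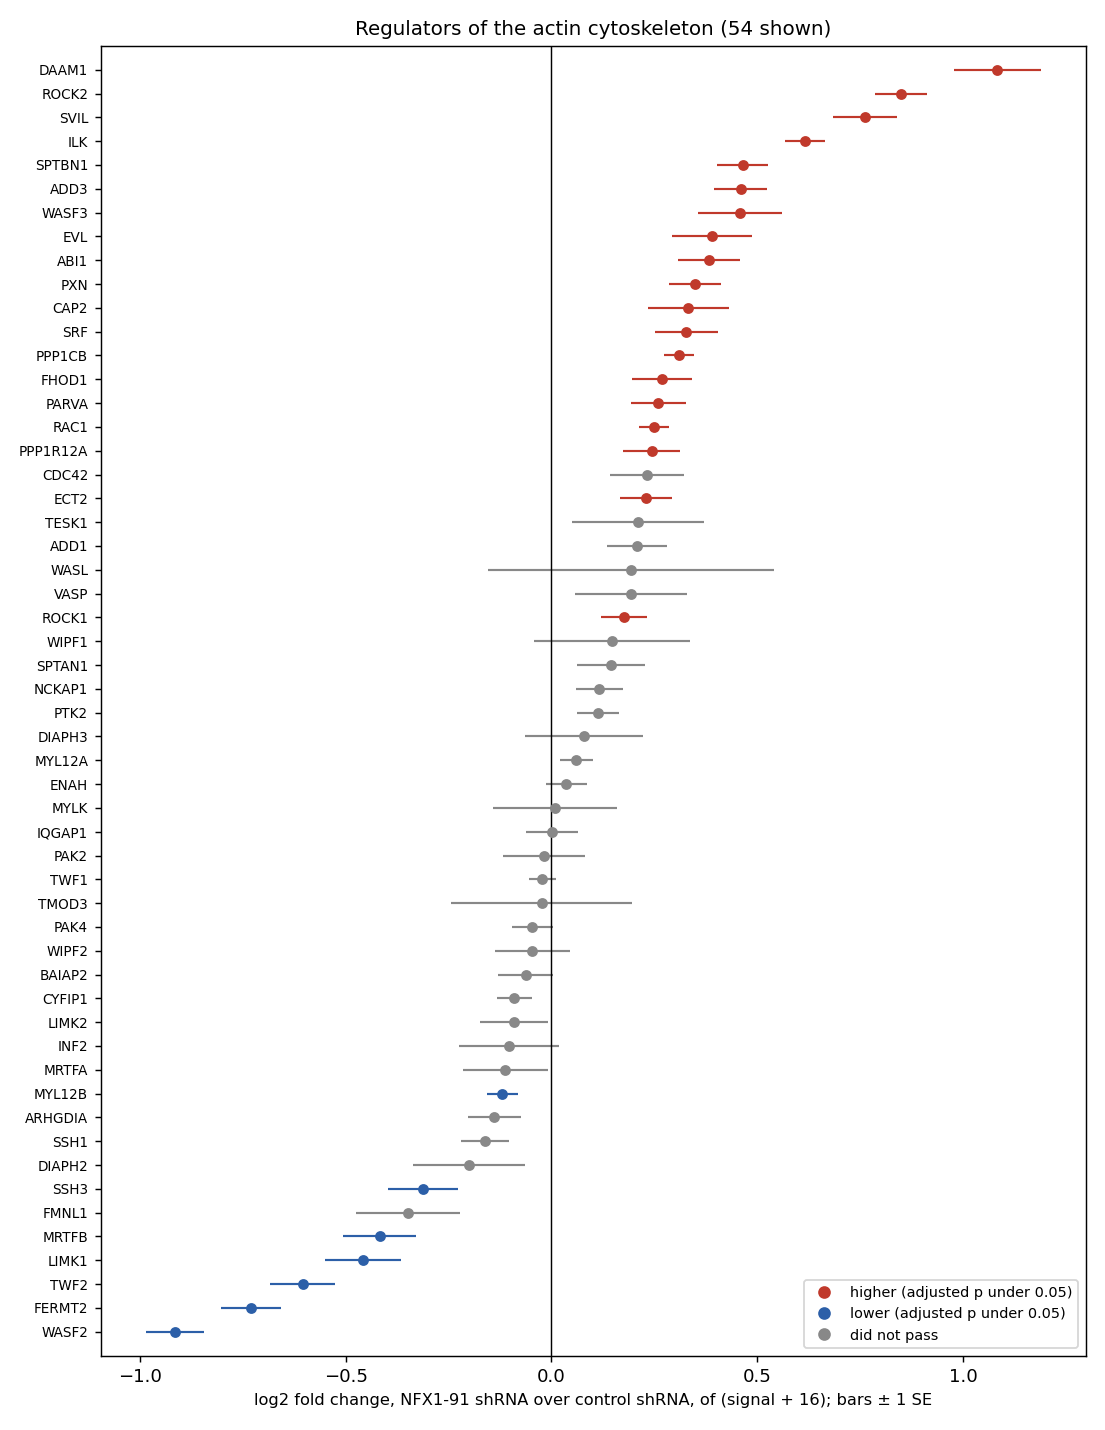
Log2 fold change of NFX1-91 shRNA over control shRNA for 54 of the 58 measured regulators of actin, in order of size, with bars of 1 SE (n = 3 arrays per group); the other 4, of which 3 were called higher, are not reported here. The 19 higher genes shown run up to DAAM1 at 1.08 and the 7 lower ones down to WASF2 at -0.91.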

How the data were processed

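Biotin-labelled RNA from HCT116 cultures was read on Affymetrix arrays, per the labels' protocols. The deposited table holds linear intensity values of 22215 probe sets on 6 arrays, and each column sums to 1. The authors' summary and scaling of probes: not given in the sources used here. Between 397 and 451 values per array repeat 1 low value. Each array was multiplied to a mean of 500 and log2(signal + 16) was taken; 24.1% to 25.9% of values lay below that offset. The number of arrays limits the precision.

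The platform annotation gave the gene names: 19064 probe sets had 1 gene, 1043 several and 2108 none listed. RefSeq identifiers (GRCh38.p14) matched 19052 of the 19064. The 2 groups were compared per gene, unpaired and two-sided, by lmFit and trended eBayes (limma 3.58.1, R 4.3.3), adjusted over all genes by Benjamini-Hochberg; single probe sets were adjusted over all probe sets. The fit was tested on simulated data. Figures used matplotlib 3.10.9. Values on every array are given for genes that passed with a change of at least 0.5 and their relatives, and up to 6 regulators are named per direction by adjusted p, some of which are not reported here; DSTN, ACTR3, DIAPH1, CAPZA1, CAPG, ACTN1, ACTN4, TPM2, MYH10, VCL, EZR and VIL1 were given such values after they were seen, while ACTB was named whatever its change. The genes, lists and roles were chosen with earlier results of these data known. The settings varied were the normalization (quantile, or centring on the median), the offset (1 or 64), the filter on dim genes, the prior (untrended, or robust), the probe set of a gene (mean of all, or without shared ones), a replicate block, the threshold (0.01) and the arrays, each left out in turn.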

Additional observations from a re-analysis of the deposited data

Results flagged for a closer look

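Probe sets annotated to several genes were not used in the comparison of genes and were looked at because they carry signal for 2 genes of the list. Of the 8 probe sets annotated to both ACTB and ACTG1, 1 was called higher, with log2 fold changes of 0.05 to 0.10 and adjusted p from 0.0442 to 0.313 over probe sets (limma). The 2 probe sets annotated to ACTB alone gave 0.19 and 0.16. Of the probe sets annotated to ARPC4 together with TTLL3, 1 was called higher (82.8 against 52.9 in control cells, log2 fold change 0.52, adjusted p = 0.00993). Another was dimmer and did not pass (0.17, adjusted p = 0.436). A brighter one, annotated to ARPC4 and ARPC4-TTLL3, averaged 711 against 812 in control cells and did not pass (-0.18, adjusted p = 0.295). The brightest probe set of ARPC4 alone was lower. Which gene these probe sets read was not tested.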

How the results depend on the processing

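Counts by limma kept within 1.5 times under the alternatives tried, with 1 exception, the count of all genes higher, which was 1762 and became 1136 at a threshold of 0.01. Leaving out 1 array at a time gave 20 to 24 actin cytoskeleton genes higher and 9 to 11 lower, 16 to 24 regulators higher and 5 to 8 lower, and 1265 to 1845 of all genes higher and 1650 to 2075 lower. The median log2 fold change of the list, 0.08, became 0.11 with median centring, which moved the median of all genes to 0.03, and 0.13 with dim genes left out, and ran from 0.048 to 0.10 without single arrays. Over 16 settings the called genes kept call and direction in 526 of 559 values, lost the call in 33 and reversed in 0. The log2 fold change of the 16 called genes with a single probe set could not change with the mean of probe sets. Nor could it change with shared probe sets left out, and these values are counted as kept or lost all the same. Call and direction held in 23 of 35 genes wherever they had a value. TAGLN had none with dim genes left out, where 11 genes were still lower because ARPC3 passed (adjusted p = 0.0377). Calls lost to other settings were 7 with the mean of probe sets and 6 without a variance trend (ACTA2, PFN1, TMSB10, ARPC2, ARPC4 and TPM2); the cause was not tested. The 12 regulators that the naming rule picked kept both in 186 of 192 values; SVIL (-0.052) and LIMK1 (0.29) reversed with shared probe sets left out. Uncalled genes near 0 changed sign in 23 of 270 values. These were PLS3 (0.012) and LASP1 (0.018) with quantile normalization, and PLS3 (0.028), LASP1 (0.028), CNN1 (0.017) and ACTN1 (0.0079) with median centring. By the mean of probe sets ACTN1 had 0.083 and MYL6 0.017, and with shared probe sets left out TPM1 had 0.0034 and MYL6 0.094. Without single arrays PLS3 lay between -0.075 and 0.048, LASP1 between -0.019 and 0.019, CNN1 between -0.087 and 0.075, ACTN1 between -0.044 and 4.1e-05, VIL1 between -0.24 and 0.12 and CALD1 between -0.027 and 0.0401. The labels do not say whether same-numbered arrays were prepared together. Their deviations from the group means correlated with r of -0.028, 0.081 and -0.021, and 2 of 6 arrays correlated best with their own number. Such values show no strong shared deviation but cannot decide whether the arrays were paired. With a replicate block 23 genes were higher and 12 lower, with 22 regulators higher and 7 lower and 1629 of all genes higher and 1969 lower, ACTA2 losing its call (adjusted p = 0.068) and ARPC3 passing (0.0467). Signals around the offset of 16, those of TAGLN in cells with the NFX1-91 hairpin among them, limit how well dim genes are sized.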
